A study of Arabidopsis thaliana with 24 samples.

Results

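The response of Arabidopsis thaliana roots to the first hour of osmotic shock was measured by comparing roots of seedlings held in polyethylene glycol (PEG) with roots of seedlings held in water for the same hour. The libraries were chosen by their labelled organ, treatment and time, which gave 6 of the 24 libraries of the study, 3 of root PEG 1 h and 3 of root water 1 h. All seedlings were wild type, ecotype Columbia-0, 7 d old, grown on sucrose-supplemented agar in a cycle of 16 h light and 8 h dark. The PEG group stood in an aqueous solution of 30% (w/v) PEG 8000 with an osmotic pressure measured at -2.0 MPa, and the water group also spent its hour in liquid, so that a change caused by the move from agar into liquid was shared by both groups. Each replicate was a pool of 30 to 50 seedlings whose roots and shoots were cut apart after the treatment, so each library holds the RNA of whole roots with all their cell types. Roots kept in PEG for 2 h and 3 h and the matching shoots, with 3 libraries per group, make up the other libraries. RNA was read by MARS-seq, a protocol that tags the 3′ end of each transcript, and levels are given as CPM, counts scaled to a common library size. In such bulk samples fewer cells of a type cannot be told apart from less RNA per cell.

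PEG of high molecular weight stays outside the cell, so it draws water from the wall and the protoplast together, much as drying soil does. Plants answer a loss of turgor with calcium and mitogen-activated protein (MAP) kinase signals, with early transcription factors of the AP2/ERF, WRKY and zinc finger families, and with the hormone abscisic acid (ABA). ABA binds receptors of the PYR/PYL family, which then hold back the clade A protein phosphatases 2C and so release the SnRK2 kinases and their targets, the ABF factors, onto genes for dehydrins and other protective proteins. In roots the same stress is known to slow cell expansion, and the root hair, a tubular outgrowth of an epidermal cell with a wall rich in extensins, is among the fastest expanding cells of the plant.

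The 6 libraries held 1332586 to 4480930 counts, the water libraries 3941951 to 4480930 and the PEG libraries 1332586 to 3489193, so that 3 counts corresponded to 0.670 to 2.25 CPM. Nuclear photosynthesis transcripts took 0.121% to 0.189% of the counts, against 15.4% to 18.6% in the shoot libraries, and root cell type markers took 0.0951% to 0.101% in water and 0.0835% to 0.0873% in PEG libraries, against 0.0160% to 0.0297% in shoot libraries. PEG replicates 2 and 3 stood apart: of 8278 genes 132 were at least 2-fold above and 7 below both other PEG libraries in replicate 2, and 38 above and 170 below in replicate 3, the shallowest of the 6 libraries. Leaving out replicate 2 lowered the number of genes called from 2248 to 1249, against 2195 without replicate 3, and values without replicate 2 are given where they matter. The labels also give each library a code whose first digit was 5 in the water libraries and PEG replicate 1 and 6 in PEG replicates 2 and 3. The labels do not explain the digit. All root libraries of PEG 2 h and 3 h had the digit 6, so among root groups only PEG 1 h held both digits. With the digit as a term, the PEG 1 h change from water therefore rests on PEG replicate 1 alone against the water libraries. A call lost in that fit cannot tell an effect of the digit from the loss of PEG replicates 2 and 3. With the digit as a term in the fit 629 genes were called, and counts from that fit stand beside the lists whose counts it changed most.

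Of 10941 genes tested, 2248 were called at an adjusted p under 0.05 (20.5%), of which 1257 rose (11.5%) and 991 fell (9.06%). Adjusted p-values come from the quasi-likelihood test of edgeR, fitted to the 12 root libraries and adjusted by the Benjamini-Hochberg method over all genes tested. The rises were the larger changes: their median size was 1.22 on the log2 scale against 0.80 for the falls, 769 rises and 357 falls were 2-fold or more, and 242 rises and 106 falls were 4-fold or more. The balance of numbers was not firm, since the share of calls that rose was 55.9% in the fit of root libraries, 46.8% without PEG replicate 2 and 35.2% in a fit of all 24 libraries. In abundance the rising genes went together from 74714 to 139679 CPM, and the falling genes from 184120 to 110480 CPM. All 3 PEG libraries lay on one side of all 3 water libraries for 3862 of the genes tested (35.3%), for 1150 of the 1257 that rose and for 975 of the 991 that fell. Separate groups were thus usual among called genes. Where they are given below for a called gene, they describe its values and add no support to the call.

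**Figure D1:**
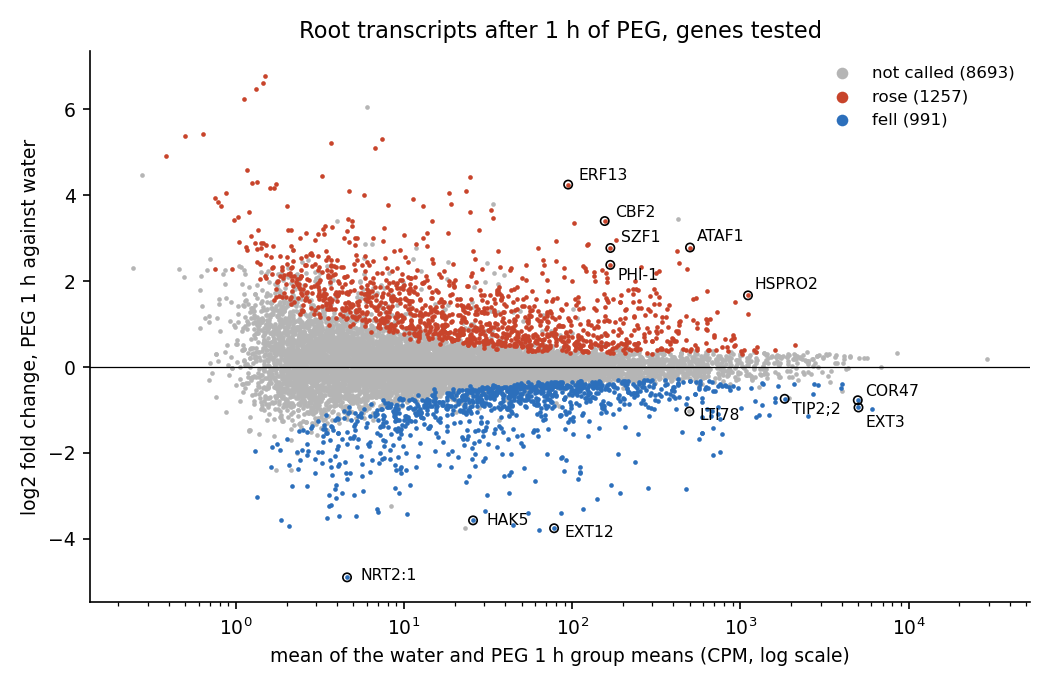
Log2 fold change of each gene tested (PEG 1 h against water) against the mean of its group means in CPM on a log axis, with the 1257 genes that rose in red, the 991 that fell in blue and the others in grey. Circles mark genes named in the text; the largest rises lie at low levels in water, and the falls reach up to abundant transcripts such as EXT3 and COR47.

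The largest rises and falls were taken among called genes with separate groups and at least 20 CPM, so separation was set by the choice. The rises were led by AP2/ERF transcription factors. Among them were ORA47, a regulator of jasmonate synthesis genes, ERF13, DREB2A, which drives genes of the dehydration response, and the C-repeat binding factors CBF1, CBF2 and DREB1A (CBF3), which are best known from the cold. CBF2 read 41.4, 24.1 and 15.9 CPM in the water libraries and 349, 257 and 249 CPM in the PEG libraries. Every PEG library was well above every water library (log2 fold change 3.40, SE 0.47, adjusted p = 0.00106). DREB1A read 2.76, 2.65 and 2.33 CPM in water and 44.9, 33.9 and 27.3 CPM in PEG (log2 fold change 3.80, SE 0.64, adjusted p = 0.00265). CBF1 read 8.28, 4.51 and 4.67 CPM in water and 87.6, 65.7 and 33.3 CPM in PEG (log2 fold change 3.47, SE 0.57, adjusted p = 0.00264). These 3 genes lie side by side as near copies, so the share of counts that each took is uncertain. DREB2A read 2.01, 3.45 and 1.401 CPM in water and 23.3, 66.3 and 14.5 CPM in PEG (log2 fold change 4.05, SE 0.64, adjusted p = 0.0017). PEG replicate 2 was the highest library. ERF13 read 10.5, 10.08 and 7.71 CPM in water and 174, 178 and 187 CPM in PEG, with PEG values close to each other.

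The other genes at the top of the rises are not transcription factors of known pathways. AT5G43620, annotated as a subunit of pre-mRNA cleavage complex II, read 2.26, 1.59 and 1.63 CPM in water and 19.4, 33.6 and 19.6 CPM in PEG (log2 fold change 3.75, SE 0.32, adjusted p = 1.15e-07). AT5G58680, a protein of ARM repeats, read 1.505, 1.06 and 1.401 CPM in water and 16.9, 18.1 and 29.0 CPM in PEG (log2 fold change 3.91, SE 0.41, adjusted p = 1.76e-06). AT3G48510, annotated as AtIII18x5-like, read 2.76, 2.92 and 1.87 CPM in water and 24.8, 26.3 and 29.9 CPM in PEG (log2 fold change 3.40, SE 0.33, adjusted p = 1.76e-06). In these 3 genes every water library stayed under 3 CPM and no PEG library came near them. AT3G56880, a protein with a VQ motif (a family that binds WRKY factors), read 3.51, 7.16 and 4.20 CPM in water and 41.3, 99.0 and 41.0 CPM in PEG. AT5G64870, a membrane-associated protein with an SPFH domain, read 7.77, 6.37 and 2.802 CPM in water and 57.1, 55.8 and 38.4 CPM in PEG (log2 fold change 3.20, SE 0.41, adjusted p = 0.000189). In 3 of the largest rises the spread among PEG libraries was widest. AT1G32920, an uncharacterized protein, read 2.51, 2.92 and 2.57 CPM in water and 13.995, 86.5 and 32.5 CPM in PEG. Its call was lost with the code digit as a term (adjusted p = 0.159). AT1G11185, annotated as a non-coding RNA, read 1.505, 5.84 and 4.20 CPM in water and 15.1, 88.2 and 32.5 CPM in PEG, and its call was lost in some fits (adjusted p = 0.0577 without PEG replicate 2, 0.0619 without water replicate 1 and 0.0563 without water replicate 3). RPL23AA, a protein of the large ribosomal subunit, read 16.05, 18.6 and 21.2 CPM in water and 47.4, 388 and 126 CPM in PEG, and its call was lost without any of 4 libraries (adjusted p = 0.153 without PEG replicate 2, 0.105 without water replicate 1, 0.0943 without water replicate 2 and 0.0911 without water replicate 3). In each of these, PEG replicate 2 was at least 2-fold above the other PEG libraries, as it also was in DREB2A and AT3G56880.

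**Figure D2:**
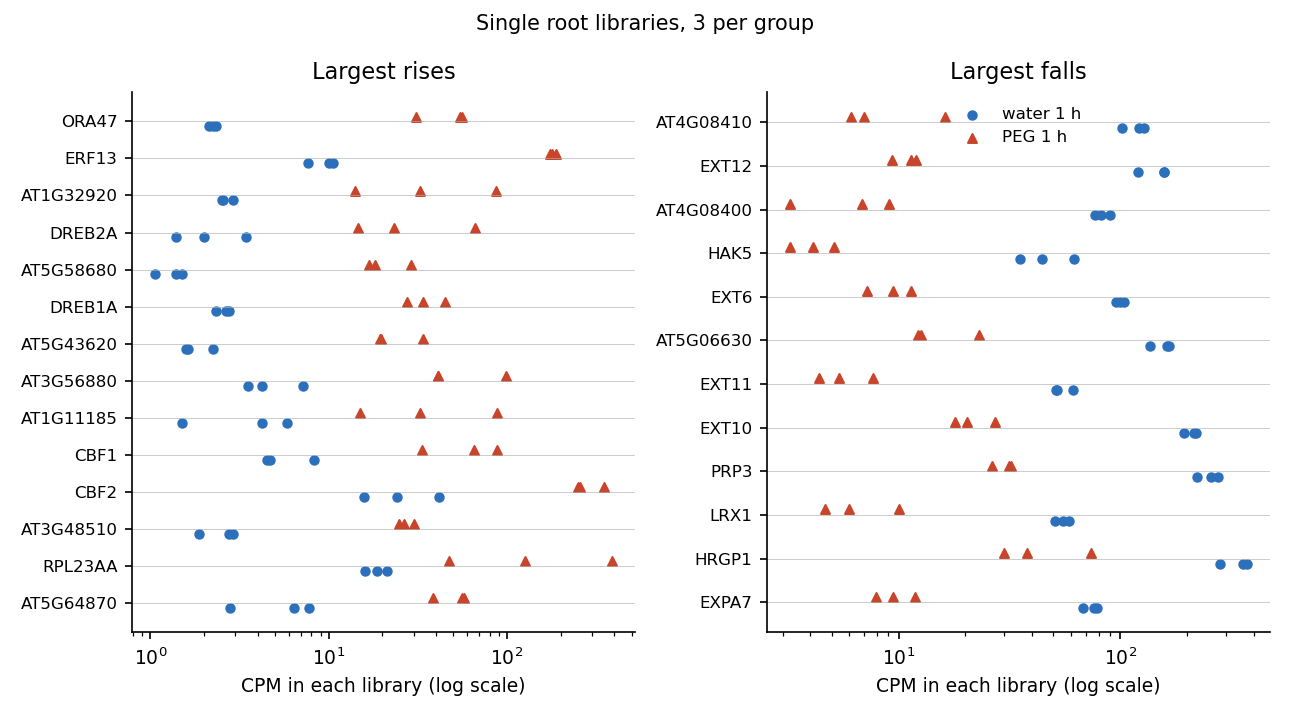
CPM in each of the 6 root libraries on a log axis for the 14 genes with the largest rises and the 12 with the largest falls among genes at 20 CPM or more in the higher group; blue circles are water libraries and red triangles PEG libraries. The genes were picked among called genes whose water and PEG values are separate, so the separation was set by the choice. The spread among PEG libraries is widest for AT1G32920, AT1G11185 and RPL23AA.

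Promoters were read because calmodulin-binding CAMTA factors are known to bind a short element, the CGCG box, in front of fast stress genes such as CBF2. The 250 bases before each gene start were taken from RefSeq (TAIR10.1; the deposited files name no build) and searched for ACGCGT, and for ACGCGG with its reverse complement CCGCGT. Of the 14 largest rises 13 had a window and 3 held a match, and of the 12 largest falls 11 had one and 1 held a match, in HAK5, the gene for a high-affinity potassium transporter. 3 of these windows are shown 5′ to 3′ on the gene's strand, ending at the base before the gene start, with the matches in capitals: AT5G43620 (chr5:17522236-17522485, plus strand, match 40 bases before the start), CBF2 (chr4:13016236-13016485, minus strand, 75 bases) and HAK5 (chr4:7802252-7802501, minus strand, 126 bases).
AT5G43620: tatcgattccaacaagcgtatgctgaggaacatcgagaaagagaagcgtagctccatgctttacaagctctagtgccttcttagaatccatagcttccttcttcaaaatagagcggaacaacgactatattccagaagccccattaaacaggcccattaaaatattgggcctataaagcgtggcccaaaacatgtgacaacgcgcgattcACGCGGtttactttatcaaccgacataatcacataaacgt
CBF2: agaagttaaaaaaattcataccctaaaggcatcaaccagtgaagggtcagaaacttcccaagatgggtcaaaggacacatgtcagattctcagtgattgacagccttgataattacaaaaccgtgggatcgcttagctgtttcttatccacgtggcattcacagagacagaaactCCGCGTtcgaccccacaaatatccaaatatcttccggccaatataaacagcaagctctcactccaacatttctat
HAK5: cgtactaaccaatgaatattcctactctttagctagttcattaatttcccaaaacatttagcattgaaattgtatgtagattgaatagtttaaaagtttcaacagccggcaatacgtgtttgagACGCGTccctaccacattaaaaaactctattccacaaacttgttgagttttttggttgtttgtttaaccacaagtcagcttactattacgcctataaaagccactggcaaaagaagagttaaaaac
Across all genes tested, 3.98% of 10723 windows held a match. The share was 6.91% of the 1230 windows of genes that rose and 3.16% of the 982 of genes that fell. Among genes that rose 4-fold or more it was 9.13% of 230, and among those that fell 4-fold or more 2.91% of 103. These shares are descriptions of letters in a window and show no binding.

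Of the signalling genes that act before transcription, MAP kinase cascade members rose: 5 rose and 0 fell of 9 tested, with a median log2 fold change of 1.099 against 0.03 over all genes tested. MKK9, a MAP kinase kinase linked to ethylene and stress signalling, read 99.0, 114 and 106 CPM in water and 384, 347 and 390.4 CPM in PEG (log2 fold change 1.81, SE 0.12, adjusted p = 9.27e-09). MKK4, which acts upstream of MPK3 and MPK6, went from 28.9 ± 2.41 to 62.9 ± 9.13 CPM. MAPKKK18, a kinase kinase kinase induced by ABA, read 2.01, 3.71 and 2.802 CPM in water and 25.5, 21.3 and 22.2 CPM in PEG (log2 fold change 3.01, SE 0.45, adjusted p = 0.000477). AT2G30020 (AP2C1), a phosphatase that acts on MAP kinases, read 11.5, 9.55 and 7.71 CPM in water and 33.0, 58.1 and 30.8 CPM in PEG. For all 4 the groups were separate. With the code digit as a term 3 members stayed called. Of the calmodulin-like and other calcium genes 2 rose and 1 fell of 10 tested, beside 20.5% called among all genes. The calcium counts of rises and falls were 1 and 0 without PEG replicate 2, and 0 and 0 with the code digit as a term. CML37, a calmodulin-like protein, read 30.3, 25.5 and 21.9 CPM in water and 72.8, 97.6 and 56.4 CPM in PEG, and its call was lost at an adjusted p of 0.0676 without PEG replicate 2 and 0.0519 without water replicate 3. TCH2 (CML24) read 1.003, 1.59 and 0.467 CPM in water and 3.23, 3.80 and 9.398 CPM in PEG and was lost at an adjusted p of 0.0653 without water replicate 3. AT3G63380 (ACA12), a calcium pump gene, fell, from 10.3 ± 1.87 to 4.76 ± 2.62 CPM, and was lost at an adjusted p of 0.0916 without PEG replicate 2.

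Ubiquitin ligases with U-box or RING domains, enzymes that mark proteins for breakdown, rose almost as a group: 6 rose and 0 fell of 7 tested, median log2 fold change 1.52. PUB19, a negative regulator of drought responses, read 30.3, 23.1 and 12.4 CPM in water and 145, 94.6 and 102 CPM in PEG (log2 fold change 2.38, SE 0.38, adjusted p = 0.00175). Its close relative PUB18 read 22.6, 23.62 and 23.8 CPM in water and 68.2, 74.2 and 67.5 CPM in PEG (log2 fold change 1.59, SE 0.20, adjusted p = 2.54e-05). The carbon and nitrogen regulator CNI1 (ATL31) went from 25.7 ± 2.0995 to 80.6 ± 13.4 CPM, and its paralog ATL6 from 82.3 ± 8.18 to 149 ± 11.2 CPM. ATL2, a RING protein induced by chitin, read 59.9, 58.4 and 47.2 CPM in water and 151, 139 and 191 CPM in PEG. No water library reached any PEG library in these 5 genes. Without PEG replicate 2 all 6 stayed called, and with the digit term 5.

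Across the whole list of AP2/ERF stress factors 22 rose and 6 fell of 37 tested, median 1.29. The AP2/ERF counts were 20 and 4 without PEG replicate 2, and 17 and 3 with the code digit as a term. ERF-1 (ERF1A), an activator that binds the GCC box of ethylene-responsive genes, read 149, 164 and 127 CPM in water and 449, 452 and 556 CPM in PEG (log2 fold change 1.72, SE 0.15, adjusted p = 1.2e-07). ERF2 read 42.1, 40.9 and 32.9 CPM in water and 97.2, 119 and 125 CPM in PEG (log2 fold change 1.55, SE 0.17, adjusted p = 2.49e-06). Falls were called for 6 members. TINY, known to bind both the dehydration and the ethylene elements, read 162, 191 and 207 CPM in water and 50.6, 29.5 and 29.9 CPM in PEG (log2 fold change -2.32, SE 0.19, adjusted p = 1.98e-07). RAP2.6, an ABA and jasmonate response factor, read 327, 372 and 409 CPM in water and 140.3, 118 and 118 CPM in PEG (log2 fold change -1.55, SE 0.14, adjusted p = 4.31e-07). ABR1, described as a repressor of ABA responses, read 56.4, 52.8 and 60.5 CPM in water and 14.7, 16.7 and 14.5 CPM in PEG (log2 fold change -1.87, SE 0.25, adjusted p = 4.43e-05). In these 3 every PEG library was far below the lowest water library. ERF53, a drought-induced activator, read 9.53, 7.16 and 8.17 CPM in water and 2.15, 1.46 and 0 CPM in PEG. TINY2 and Rap2.6L went from 10.04 ± 0.418 to 4.03 ± 1.60 CPM and from 38.6 ± 2.23 to 26.8 ± 2.03 CPM. The TINY2 call was lost at an adjusted p of 0.0706 without PEG replicate 2, and that of Rap2.6L at 0.0781 without PEG replicate 2 and 0.0543 without water replicate 1.

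Of the WRKY factors, regulators best known from defence, 3 rose and 0 fell of 11 tested, median 0.30, beside 20.5% called among all genes. WRKY40, a repressor of ABA and defence genes, read 24.3, 14.1 and 16.6 CPM in water and 108, 160.1 and 158 CPM in PEG (log2 fold change 2.94, SE 0.46, adjusted p = 0.00188), with every PEG library above 100 CPM. WRKY18, its partner, read 2.26, 2.65 and 1.87 CPM in water and 11.1, 32.4 and 9.398 CPM in PEG, with PEG replicate 2 the highest. The WRKY18 call was lost with the code digit as a term (adjusted p = 0.109). WRKY33, which drives camalexin synthesis, read 35.6, 31.6 and 23.3 CPM in water and 154, 160.4 and 131 CPM in PEG (log2 fold change 2.31, SE 0.17, adjusted p = 1.87e-08). Of the zinc finger factors of the ZAT, AZF and SZF kinds 8 rose and 0 fell of 10 tested, median 1.41. ZF2 (AZF2), a repressor induced by ABA, salt and drought, read 41.6, 37.4 and 35.02 CPM in water and 221, 192 and 166 CPM in PEG (log2 fold change 2.35, SE 0.17, adjusted p = 3.27e-08). RHL41 (ZAT12), a regulator of reactive oxygen responses, read 154, 133 and 129.8 CPM in water and 535, 431 and 348 CPM in PEG (log2 fold change 1.66, SE 0.22, adjusted p = 0.000134). CZF1 (SZF2) read 174, 165 and 166 CPM in water and 382, 396 and 466 CPM in PEG (log2 fold change 1.2997, SE 0.13, adjusted p = 8.38e-07). SZF1, its relative, read 47.6, 48.6 and 32.9 CPM in water and 256, 313 and 313 CPM in PEG. In both, all PEG libraries lay well above all water libraries. STZ (ZAT10), a repressor of growth and stress genes, read 615, 440.5 and 387 CPM in water and 1276, 1319 and 1534 CPM in PEG (log2 fold change 1.52, SE 0.26, adjusted p = 0.00147).

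NAC, HD-Zip and MYB stress factors rose without any fall: 14 rose and 0 fell of 22 tested, median 1.18. ATAF1, a NAC factor that activates the ABA synthesis gene NCED3, read 135, 129 and 118 CPM in the water libraries and 1047, 855 and 723 CPM in the PEG libraries (log2 fold change 2.78, SE 0.16, adjusted p = 7e-10). ATAF2 read 94.0, 107 and 87.6 CPM in water and 358, 403 and 239 CPM in PEG (log2 fold change 1.80, SE 0.18, adjusted p = 4.48e-06). NAC102 read 65.4, 53.6 and 55.1 CPM in water and 339, 278 and 163 CPM in PEG (log2 fold change 2.18, SE 0.23, adjusted p = 2.45e-05). In all 3 NAC genes the groups were separate and PEG replicate 3 was the lowest PEG library. MYB77, which modulates auxin responses in lateral roots, read 20.6, 17.2 and 10.97 CPM in water and 121, 113 and 94.8 CPM in PEG (log2 fold change 2.77, SE 0.27, adjusted p = 1.05e-05). MYB73, of the same subgroup, read 179, 192 and 191 CPM in water and 472, 421 and 398 CPM in PEG (log2 fold change 1.201, SE 0.14, adjusted p = 5.58e-06), and its groups were also separate.

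In the ABA pathway the parts moved in different directions. Of the synthesis and breakdown enzymes 3 rose and 0 fell of 5 tested. NCED3, the rate-limiting cleavage enzyme of ABA synthesis, read 1.003, 0.531 and 0.934 CPM in water and 10.05, 8.47 and 8.54 CPM in PEG. CYP707A3, an ABA 8′-hydroxylase that destroys the hormone, read 1.505, 0.531 and 1.17 CPM in water and 10.8, 6.43 and 7.69 CPM in PEG (log2 fold change 2.91, SE 0.45, adjusted p = 0.000137), so enzymes of both directions were higher in every PEG library than in any water library. Of the receptors 0 rose and 3 fell of 8 tested, median -0.48. The receptor counts were 0 and 1 without PEG replicate 2, and 0 and 1 with the code digit as a term. PYL6 read 436, 413 and 359 CPM in water and 178, 174 and 274 CPM in PEG (log2 fold change -0.97, SE 0.16, adjusted p = 0.000233), and the falls of PYL4, from 1125 ± 55.8 to 804 ± 140.4 CPM, and PYL5, from 997 ± 54.3 to 724 ± 131 CPM, were lost without PEG replicate 2 (adjusted p = 0.0562 without PEG replicate 2 for PYL4, and 0.0527 without PEG replicate 2 for PYL5). Of the clade A phosphatases, which the receptors restrain, 5 rose and 0 fell of 8 tested, median 0.82. The phosphatase counts were 3 and 0 without PEG replicate 2, and 5 and 0 with the code digit as a term. PP2CA read 77.5, 73.5 and 70.3 CPM in water and 286, 239 and 185 CPM in PEG (log2 fold change 1.69, SE 0.15, adjusted p = 2.34e-07). HAI1 read 2.76, 7.16 and 3.27 CPM in water and 24.8, 16.7 and 11.1 CPM in PEG (log2 fold change 2.08, SE 0.37, adjusted p = 0.00118). ABI1 read 167, 183 and 179 CPM in water and 315, 265 and 203 CPM in PEG, with an adjusted p of 0.0113 in the fit of all root libraries and of 0.103 without PEG replicate 1, 0.0557 without PEG replicate 2, 0.0752 without water replicate 1 and 0.0512 without water replicate 3.

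Of the SnRK2 kinases and ABF factors, which act downstream of the phosphatases, 1 rose and 2 fell of 10 tested, beside 20.5% called among all genes, median -0.37. The SnRK2 and ABF counts were 0 and 1 without PEG replicate 2, and 0 and 0 with the code digit as a term. SNRK2.10, a kinase activated by osmotic stress without ABA, read 152, 171 and 191 CPM in water and 130.3, 119 and 116 CPM in PEG (log2 fold change -0.49, SE 0.11, adjusted p = 0.00507). The calls of SNRK2.1, from 10.5 ± 2.11 to 23.1 ± 9.23 CPM, and of ABI5, from 4.19 ± 1.14 to 1.49 ± 0.650 CPM, were both lost when libraries were left out. For SNRK2.1 the adjusted p was 0.154 without PEG replicate 2 and 0.0539 without water replicate 1, and for ABI5 0.158 without PEG replicate 2, 0.083 without PEG replicate 3, 0.0927 without water replicate 1 and 0.127 without water replicate 3.

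No dehydrin or other protective gene, the class for which the ABA and DREB pathways are known, was called as rising in this hour: of the LEA, RD, COR and LTP list 0 rose and 6 fell of 20 tested, median -0.26, and the list summed to 18547 CPM in water and 11484 CPM in PEG. At an unadjusted p under 0.05 by edgeR 0 were higher and 9 lower, and DESeq2 called 0 rises and 8 falls. The falls were 4 without PEG replicate 2 and 1 with the digit term. COR47, a dehydrin, read 6792, 5937 and 6149 CPM in the water libraries and 4314, 3673 and 3056 CPM in the PEG libraries (log2 fold change -0.77, SE 0.14, adjusted p = 0.000554). LEA14, a desiccation protein, read 2011, 2034 and 2119 CPM in water and 1451, 1102 and 957 CPM in PEG (log2 fold change -0.81, SE 0.14, adjusted p = 0.000477). ERD7 read 1034, 999 and 965 CPM in water and 449.6, 373 and 286 CPM in PEG (log2 fold change -1.43, SE 0.17, adjusted p = 1.38e-05). In these 3 every PEG library was below every water library and PEG replicate 3 was the lowest. With the digit term the calls of COR47 (adjusted p = 0.098) and LEA14 (0.11) were lost. ERD14, a further dehydrin, read 3232, 2936 and 3163 CPM in water and 2601, 2465 and 1976 CPM in PEG, with an adjusted p of 0.0248 in the fit of all root libraries and of 0.0534 without PEG replicate 3 and 0.0542 without water replicate 1. LTI78 (RD29A), the standard reporter of the dehydration response, read 609.6, 683 and 721 CPM in water and 529, 304 and 135 CPM in PEG and was not called (adjusted p = 0.0999). All its PEG values were below its water values but ranged widely. RD29B lay below the filter on low counts.

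Compatible solutes are the sugars and amino acids that plants accumulate against water loss. Counts for their genes are read beside the 20.5% called among all genes. Of the proline and raffinose genes 1 rose and 2 fell of 10 tested, and none stayed called without PEG replicate 2 or with the digit term. P5CS1, the key enzyme of proline synthesis, read 36.1, 40.1 and 40.9 CPM in water and 52.8, 51.1 and 39.3 CPM in PEG (adjusted p = 0.337). ERD5 (PRODH1), the enzyme that degrades proline, read 861, 699 and 898 CPM in water and 856, 908 and 565 CPM in PEG (adjusted p = 0.876). The groups overlapped for both genes. Of the class II trehalose phosphate synthases 1 rose and 0 fell of 5 tested, namely TPS8, from 13.4 ± 2.59 to 31.6 ± 15.2 CPM, whose groups overlapped and whose call was lost at an adjusted p of 0.0517 without PEG replicate 1, 0.13 without PEG replicate 2, 0.0833 without water replicate 1 and 0.0723 without water replicate 3.

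Of the genes for jasmonate synthesis and turnover 5 rose and 6 fell of 22 tested, median -0.10. The jasmonate counts were 2 and 4 without PEG replicate 2, and 2 and 1 with the code digit as a term. The 5 that rose encode enzymes of synthesis. AOC3, allene oxide cyclase, read 157, 162 and 110.2 CPM in water and 388, 357 and 364 CPM in PEG (log2 fold change 1.37, SE 0.18, adjusted p = 5.22e-05), and the groups were separate. Members that fell included oxygenase and cytochrome genes. AT5G05600, an oxygenase dependent on 2-oxoglutarate and iron, read 130.1, 131 and 139.6 CPM in water and 48.4, 52.0 and 45.3 CPM in PEG (log2 fold change -1.45, SE 0.12, adjusted p = 6.73e-08). AT2G38240, of the same oxygenase family, went from 30.3 ± 4.56 to 14.3 ± 4.48 CPM (adjusted p = 0.00262). CYP94B1, which hydroxylates the active conjugate, went from 27.0 ± 1.07 to 14.6 ± 2.59 CPM (adjusted p = 0.0022). Of the JAZ repressors and the activator MYC2 4 rose and 0 fell of 6 tested, median 1.36. JAZ1 read 6.27, 4.25 and 4.20 CPM in water and 14.4, 14.3 and 17.1 CPM in PEG (log2 fold change 1.61, SE 0.27, adjusted p = 0.000316), JAZ5 read 8.28, 7.16 and 7.005 CPM in water and 28.3, 34.8 and 25.6 CPM in PEG. MYC2 read 34.6, 24.9 and 26.4 CPM in water and 67.5, 66.9 and 48.7 CPM in PEG (log2 fold change 1.12, SE 0.16, adjusted p = 7.11e-05). TIFY10B (JAZ2) read 2.76, 3.45 and 2.33 CPM in water and 10.05, 29.2 and 23.1 CPM in PEG. Its call was lost with the code digit as a term (adjusted p = 0.07). The groups of these 4 genes did not overlap.

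The remaining hormone lists had fewer calls and are read beside the 20.5% called among all genes. Of the ethylene genes 3 rose and 1 fell of 12 tested. The ethylene counts were 3 and 0 without PEG replicate 2, and 2 and 0 with the code digit as a term. ACS7, an enzyme of ethylene synthesis, read 2.51, 2.65 and 2.802 CPM in water and 10.8, 5.26 and 11.96 CPM in PEG (log2 fold change 1.72, SE 0.38, adjusted p = 0.00309). EBF1, an F-box protein that destroys the ethylene factor EIN3, read 19.8, 15.9 and 15.6 CPM in water and 31.9, 48.8 and 54.7 CPM in PEG (log2 fold change 1.37, SE 0.20, adjusted p = 6.61e-05). EBF2, of the same function, fell, 62.9, 53.3 and 48.3 CPM in water and 31.6, 30.1 and 53.8 CPM in PEG, with overlapping groups and an adjusted p of 0.0325 in the fit of all root libraries and of 0.0724 without PEG replicate 1, 0.139 without PEG replicate 2 and 0.0944 without water replicate 1. Of the auxin genes 3 rose and 2 fell of 25 tested. The auxin counts were 1 and 2 without PEG replicate 2, and 0 and 2 with the code digit as a term. The repressors IAA28, from 282 ± 14.4 to 155 ± 10.8 CPM (adjusted p = 3.67e-05), and IAA7, from 279 ± 26.2 to 183 ± 8.85 CPM (adjusted p = 0.000601), fell with separate groups. AUX1, the auxin influx carrier, read 26.3, 23.9 and 21.2 CPM in water and 33.4, 55.8 and 46.1 CPM in PEG (log2 fold change 0.93, SE 0.19, adjusted p = 0.00198). Of the gibberellin and brassinosteroid genes 2 rose and 0 fell of 21 tested. The gibberellin and brassinosteroid counts were 1 and 0 without PEG replicate 2, and 1 and 0 with the code digit as a term. The gibberellin receptor GID1A read 2.26, 5.31 and 6.77 CPM in water and 16.5, 19.3 and 14.5 CPM in PEG (log2 fold change 1.83, SE 0.33, adjusted p = 0.00067), and the brassinosteroid receptor BRI1 read 2.51, 3.18 and 3.74 CPM in water and 5.38, 11.7 and 5.98 CPM in PEG, lost at an adjusted p of 0.245 without PEG replicate 2 and 0.0599 without water replicate 1. Of the cytokinin genes 0 rose and 1 fell of 11 tested, namely CKX6, from 9.95 ± 2.55 to 4.74 ± 1.36 CPM, called at an adjusted p of 0.0496 and lost in 5 of the 6 fits that left out a library at an adjusted p of 0.0942 without PEG replicate 1, 0.0629 without PEG replicate 2, 0.0991 without PEG replicate 3, 0.106 without water replicate 2 and 0.13 without water replicate 3.

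Cell wall proteins of growing root hairs made up most of the largest falls. Of the extensins and proline-rich wall proteins 0 rose and 16 fell of 17 tested, median -2.98, and their sum went from 12757 to 5089 CPM. EXT3, described below, held the largest part of this sum in both groups, so the sum does not measure root hair wall genes alone. Without PEG replicate 2 there were 16 falls and with the digit term 15. Extensins are rod-like glycoproteins that are cross-linked into the wall, and their genes are near copies of each other, so the share of counts that each member took is uncertain. AT4G08410 read 129, 122 and 102 CPM in the water libraries and 6.10, 7.01 and 16.2 CPM in the PEG libraries (log2 fold change -3.79, SE 0.23, adjusted p = 1.6e-09). EXT12 read 158, 120.2 and 157 CPM in water and 9.33, 11.4 and 11.96 CPM in PEG, EXT6 read 105, 95.8 and 99.7 CPM in water and 7.18, 11.4 and 9.398 CPM in PEG (log2 fold change -3.40, SE 0.20, adjusted p = 1.05e-09). EXT10 read 194, 215 and 219 CPM in water and 17.9, 20.4 and 27.3 CPM in PEG (log2 fold change -3.31, SE 0.17, adjusted p = 2.33e-10). AT3G54580, another extensin-like gene, read 852, 788 and 865 CPM in water and 118, 107 and 126 CPM in PEG (log2 fold change -2.84, SE 0.12, adjusted p = 4.71e-11). LRX1, a wall protein with leucine-rich repeats that shapes root hairs, read 55.4, 58.9 and 50.7 CPM in water and 10.05, 4.67 and 5.98 CPM in PEG (log2 fold change -2.98, SE 0.31, adjusted p = 3.56e-06). In each of these 6 genes the highest PEG library was far below the lowest water library. PRP3, a proline-rich protein of root hairs, read 275, 256 and 223 CPM in water and 32.3, 26.3 and 31.6 CPM in PEG (log2 fold change -3.08, SE 0.23, adjusted p = 2.24e-07). HRGP1 read 373, 359 and 283 CPM in water and 29.8, 37.97 and 73.5 CPM in PEG (log2 fold change -2.94, SE 0.28, adjusted p = 1.52e-05). EXT3, which is needed for the wall at the cell plate, read 7081, 6788 and 5995 CPM in water and 3040.2, 2903 and 4408 CPM in PEG (log2 fold change -0.94, SE 0.18, adjusted p = 0.0012).

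Of the other genes of root hairs 1 rose and 17 fell of 20 tested, median -2.26, with 0 and 15 without PEG replicate 2, and 0 and 12 with the code digit as a term, and the list summed to 2341 CPM in water and 592 CPM in PEG. The summed share of the root cell type markers was also lower in every PEG library than in any water library, and its part in these falls was not tested. EXPA7, an expansin that loosens the wall of root hairs, read 67.7, 75.9 and 78.9 CPM in water and 11.8, 7.89 and 9.398 CPM in PEG (log2 fold change -2.93, SE 0.27, adjusted p = 9.39e-07). EXPA18 read 65.4, 79.6 and 77.1 CPM in water and 16.1, 14.02 and 7.69 CPM in PEG (log2 fold change -2.46, SE 0.23, adjusted p = 6.25e-07). XTH14, a xyloglucan endotransglucosylase, read 275, 314 and 302 CPM in water and 44.1, 42.9 and 46.1 CPM in PEG (log2 fold change -2.75, SE 0.14, adjusted p = 2.33e-10). AT5G17820, a class III peroxidase, read 1257, 1218 and 1126 CPM in water and 349.9, 266 and 305 CPM in PEG (log2 fold change -1.97, SE 0.13, adjusted p = 7.85e-09), and the peroxidase genes AT4G26010 and AT1G30870 went from 184 ± 22.7 to 31.0 ± 5.04 CPM and from 189 ± 8.88 to 34.7 ± 4.89 CPM. No PEG library came near a water library in any of them. SCN1, which encodes a GDP dissociation inhibitor that restricts where hairs form, was the member that rose, from 12.9 ± 1.82 to 25.3 ± 11.3 CPM, and its call was lost at an adjusted p of 0.293 without PEG replicate 2, 0.114 without water replicate 1, 0.0647 without water replicate 2 and 0.0724 without water replicate 3. SHV2 (COBL9), a marker of hair cells, read 18.3, 15.4 and 11.2 CPM in water and 5.74, 2.04 and 0 CPM in PEG. GL2, which specifies the hairless epidermal cells, read 27.6, 24.1 and 20.3 CPM in water and 20.5, 15.2 and 10.3 CPM in PEG (adjusted p = 0.0478), with overlapping groups, and was lost at an adjusted p of 0.149 without PEG replicate 2, 0.109 without PEG replicate 3, 0.138 without water replicate 1 and 0.0761 without water replicate 2.

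**Figure D3:**
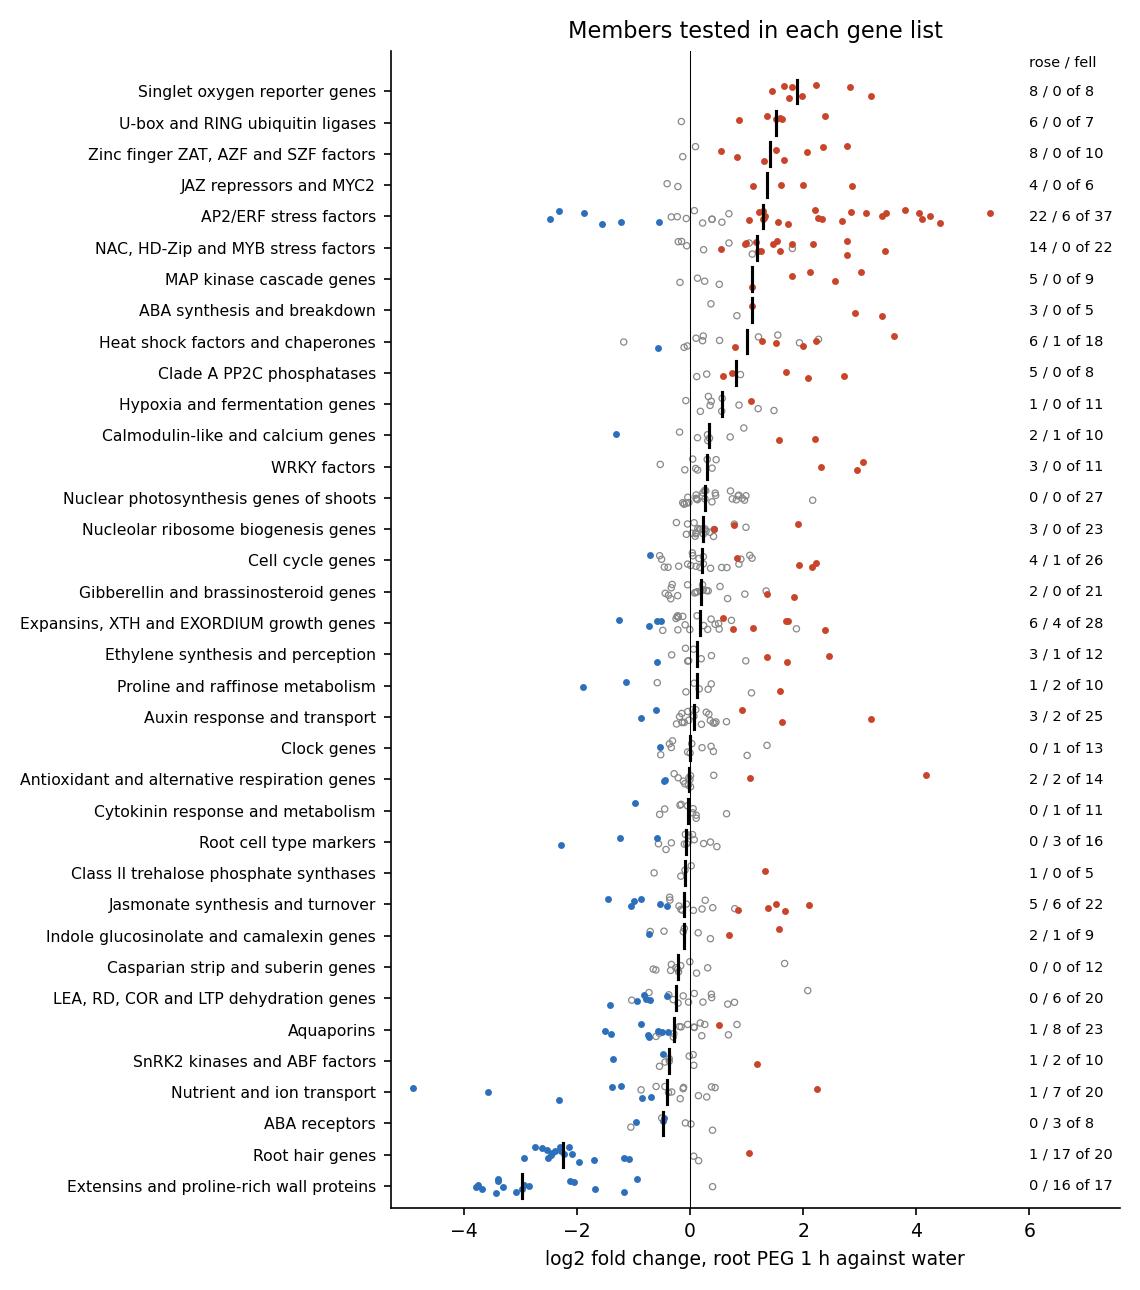
Log2 fold change (PEG 1 h against water) of each member tested in the 36 gene lists, ordered by the list median, which is the black bar; red points rose, blue points fell and open points were not called, with the counts at the right. Extensins and root hair genes lie at the bottom with medians of -2.98 and -2.26, and singlet oxygen reporters at the top with 1.89.

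Wall genes with roles outside root hairs went both ways: of the expansins, XTH and EXORDIUM genes 6 rose and 4 fell of 28 tested. The expansin, XTH and EXORDIUM counts were 6 and 3 without PEG replicate 2, and 4 and 0 with the code digit as a term. PHI-1, of the EXORDIUM family that is linked to brassinosteroid growth and phosphate supply, read 75.0, 49.4 and 38.5 CPM in water and 284, 270.5 and 293 CPM in PEG (log2 fold change 2.38, SE 0.21, adjusted p = 2.14e-06). EXO itself read 502, 422 and 336 CPM in water and 829, 934 and 954 CPM in PEG (log2 fold change 1.11, SE 0.16, adjusted p = 8.13e-05). XTR6 (XTH23) read 109, 85.7 and 82.7 CPM in water and 334, 345 and 208 CPM in PEG (log2 fold change 1.69, SE 0.17, adjusted p = 3.07e-06). EXGT-A3 (XTH27) read 128, 118 and 111 CPM in water and 195, 180.2 and 157 CPM in PEG (log2 fold change 0.58, SE 0.12, adjusted p = 0.00144), with PEG above water in every library of all 4. TCH4 (XTH22), the touch-induced member, read 3.76, 2.92 and 1.63 CPM in water and 8.61, 8.18 and 11.96 CPM in PEG. EXL4, an EXORDIUM-like gene, fell from 661 ± 16.6 to 467 ± 98.6 CPM (adjusted p = 0.0111). XTH4 fell from 259.6 ± 37.96 to 172 ± 14.7 CPM, and XTH33 from 12.4 ± 2.02 to 5.22 ± 1.19 CPM.

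Aquaporins, the channels that let water through the plasma membrane (PIP) and the vacuole membrane (TIP), fell where they were called with a single exception: 1 rose and 8 fell of 23 tested, median -0.29. The aquaporin counts were 1 and 7 without PEG replicate 2, and 0 and 5 with the code digit as a term. Their sum went from 22887 to 18309 CPM. TIP2;2 read 2457, 2174 and 2242 CPM in water and 1266, 1248 and 1608 CPM in PEG (log2 fold change -0.74, SE 0.13, adjusted p = 0.000449). TIP4;1 read 246, 265 and 233 CPM in water and 145, 126 and 185 CPM in PEG (log2 fold change -0.73, SE 0.13, adjusted p = 0.000749). PIP2;4, a root plasma membrane channel, read 227, 187 and 220.2 CPM in water and 90.4, 76.5 and 70.1 CPM in PEG (log2 fold change -1.41, SE 0.15, adjusted p = 2.69e-06). PIP1;5 went from 216 ± 37.8 to 119.9 ± 25.5 CPM (adjusted p = 0.00169). NIP5;1, which carries boric acid, read 654, 646 and 712 CPM in water and 303, 263 and 134 CPM in PEG (log2 fold change -1.502, SE 0.21, adjusted p = 0.000194). In these genes every PEG library was below every water library. TIP2 (TIP1;2) read 5008, 4660.4 and 4262 CPM in water and 3111, 2781 and 4010.3 CPM in PEG (log2 fold change -0.49, SE 0.13, adjusted p = 0.0111). GAMMA-TIP (TIP1;1) read 4542, 4580.5 and 4565 CPM in water and 3205, 3205 and 4065 CPM in PEG, a call lost at an adjusted p of 0.0525 without PEG replicate 1, 0.0871 without PEG replicate 2, 0.0503 without water replicate 1 and 0.0502 without water replicate 2. RD28 (PIP2;3) was the member that rose, 177, 166 and 170.2 CPM in water and 231, 214 and 292 CPM in PEG (log2 fold change 0.51, SE 0.12, adjusted p = 0.0042). Its call was lost at an adjusted p of 0.149 with the digit term and 0.664 in the edgeR fit of all 24 libraries, and the authors' deposited table gave it an adjusted p of 0.5.

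Of the transporters of nutrients and ions 1 rose and 7 fell of 20 tested, median -0.41. The falls numbered 7 without PEG replicate 2 and 7 with the digit term, while the rise was lost in both. HAK5 read 35.4, 44.6 and 61.9 CPM in water and 3.23, 4.09 and 5.13 CPM in PEG (log2 fold change -3.57, SE 0.28, adjusted p = 3.55e-08). SULTR1;2, the main sulfate uptake carrier, read 29.8, 32.4 and 32.5 CPM in water and 7.54, 4.97 and 6.83 CPM in PEG (log2 fold change -2.32, SE 0.29, adjusted p = 1.2e-05). PHT1;1, a phosphate carrier, read 1099, 1100.4 and 981 CPM in water and 481, 368 and 521 CPM in PEG (log2 fold change -1.22, SE 0.14, adjusted p = 5.1e-06). NRT2:1, a high-affinity nitrate transporter, read 5.77, 10.08 and 10.97 CPM in water and 0.359, 0.292 and 0 CPM in PEG, so the PEG libraries were under the level of 3 counts and no fold change is given (adjusted p = 2.25e-05). WR3 (NRT3.1), its partner protein, read 38.6, 47.0 and 44.8 CPM in water and 15.1, 14.02 and 23.9 CPM in PEG (log2 fold change -1.39, SE 0.18, adjusted p = 2.69e-05). NRT1.5 (NPF7.3), which releases nitrate into the xylem, read 15.05, 19.4 and 10.3 CPM in water and 28.3, 104 and 80.3 CPM in PEG, a rise that was lost at an adjusted p of 0.0658 without PEG replicate 2 and 0.0514 without water replicate 3. No PEG library of the falling genes reached a water library.

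Genes that report singlet oxygen, a reactive form of oxygen first studied in the flu mutant, all rose: 8 rose and 0 fell of 8 tested, median 1.89. The singlet oxygen counts were 7 and 0 without PEG replicate 2, and 6 and 0 with the code digit as a term. HSPRO2, a protein resembling a sugar beet nematode resistance protein, read 596, 504 and 494 CPM in water and 1925, 1705 and 1433 CPM in PEG (log2 fold change 1.67, SE 0.15, adjusted p = 2.02e-07), the largest gain in mean CPM of any gene called. AT3G55840, its Hs1pro-1 relative, read 11.5, 12.2 and 9.11 CPM in water and 47.4, 40.3 and 41.0 CPM in PEG (log2 fold change 1.98, SE 0.22, adjusted p = 3.65e-06). BCS1 (OM66), a mitochondrial outer membrane protein, read 9.78, 4.25 and 4.67 CPM in water and 28.7, 34.5 and 22.2 CPM in PEG (log2 fold change 2.23, SE 0.37, adjusted p = 0.000935). AT3G28580, annotated as a P-loop nucleoside triphosphate hydrolase, read 15.3, 10.3 and 8.64 CPM in water and 30.9, 37.97 and 21.4 CPM in PEG (log2 fold change 1.45, SE 0.23, adjusted p = 0.0002). All PEG values were above all water values in these 4. Of the antioxidant enzymes 2 rose and 2 fell of 14 tested, beside 20.5% called among all genes. The antioxidant counts were 1 and 2 without PEG replicate 2, and 1 and 0 with the code digit as a term. CAT3, a catalase, read 1071, 1139 and 905 CPM in water and 790.2, 671 and 828 CPM in PEG (log2 fold change -0.45, SE 0.12, adjusted p = 0.0126) and the superoxide dismutase CSD1 went from 660.2 ± 91.9 to 479 ± 39.3 CPM (adjusted p = 0.00946). FSD1, an iron superoxide dismutase, read 147, 309 and 208 CPM in water and 330.1, 515 and 541 CPM in PEG, with an adjusted p of 0.0143 in the fit of all root libraries and of 0.0775 without PEG replicate 2, 0.0689 without PEG replicate 3 and 0.0613 without water replicate 3.

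Of the heat shock factors and chaperones 6 rose and 1 fell of 18 tested, median 1.004. The heat shock counts were 3 and 0 without PEG replicate 2, and 3 and 0 with the code digit as a term. HSFC1 read 45.6, 46.7 and 35.5 CPM in water and 234, 224 and 136 CPM in PEG (log2 fold change 2.23, SE 0.21, adjusted p = 3.11e-06). HSFB2A, a repressor, read 21.6, 23.4 and 25.2 CPM in water and 72.8, 70.4 and 53.8 CPM in PEG (log2 fold change 1.51, SE 0.18, adjusted p = 1.04e-05). AT-HSFA7B read 5.02, 2.39 and 3.27 CPM in water and 13.6, 17.8 and 9.398 CPM in PEG (log2 fold change 1.99, SE 0.34, adjusted p = 0.000359). HSF4 (HSFB1) fell, from 302 ± 17.96 to 201 ± 76.1 CPM, with an adjusted p of 0.0487 in the fit of all root libraries and of 0.138 without PEG replicate 2, 0.0837 without PEG replicate 3, 0.113 without water replicate 1, 0.0763 without water replicate 2 and 0.0705 without water replicate 3. Of the hypoxia and fermentation genes 1 rose and 0 fell of 11 tested, beside 20.5% called among all genes. The gene was RBOHD, the NADPH oxidase that makes reactive oxygen at the plasma membrane. It read 84.3, 60.5 and 45.3 CPM in water and 151, 141 and 103 CPM in PEG (log2 fold change 1.08, SE 0.21, adjusted p = 0.00185). Of the indole glucosinolate and camalexin genes 2 rose and 1 fell of 9 tested, beside 20.5% called among all genes. The indole counts were 2 and 0 without PEG replicate 2, and 0 and 0 with the code digit as a term. MYB51, a regulator of indole glucosinolates, read 14.3, 11.7 and 5.84 CPM in water and 24.4, 30.1 and 43.6 CPM in PEG (log2 fold change 1.57, SE 0.34, adjusted p = 0.00461), and CYP79B3, the first enzyme of the pathway, went from 60.4 ± 3.29 to 98.2 ± 8.78 CPM (adjusted p = 0.000579). MYB34, another regulator, fell from 152 ± 15.1 to 88.6 ± 36.4 CPM, which was lost at an adjusted p of 0.0507 without PEG replicate 2 and 0.0594 without water replicate 2.

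Lists for cell division, ribosome making and the endodermal barrier are read beside the 20.5% called among all genes. Of the ribosome biogenesis genes 3 rose and 0 fell of 23 tested. The ribosome biogenesis counts were 1 and 0 without PEG replicate 2, and 0 and 0 with the code digit as a term. FIB2, a nucleolar fibrillarin, read 307, 279.7 and 291 CPM in water and 369, 346 and 461 CPM in PEG (adjusted p = 0.0338, lost at 0.0673 without PEG replicate 1, 0.138 without PEG replicate 3, 0.0946 without water replicate 1, 0.175 without water replicate 2 and 0.135 without water replicate 3, and at 0.571 in the fit of all 24 libraries). Of the cell cycle genes 4 rose and 1 fell of 26 tested. The cell cycle counts were 0 and 1 without PEG replicate 2, and 0 and 1 with the code digit as a term. SIM, an inhibitor of division in cells that enter endoreduplication, read 253, 293 and 320.3 CPM in water and 185, 176 and 172 CPM in PEG (log2 fold change -0.70, SE 0.12, adjusted p = 0.000466). Among the 12 Casparian strip and suberin genes none was called by edgeR, 1 was higher and 3 lower at an unadjusted p under 0.05, and DESeq2 called 1 fall. CASP1, which organizes the Casparian strip, read 446, 430.4 and 420.0 CPM in water and 322, 309 and 404 CPM in PEG (adjusted p = 0.0538). Of the clock genes 0 rose and 1 fell of 13 tested, which was FKF1, 28.3, 27.1 and 27.3 CPM in water and 17.2, 19.6 and 21.4 CPM in PEG, called at an adjusted p of 0.033 and lost at 0.0754 without PEG replicate 1, 0.0713 without PEG replicate 2, 0.062 without water replicate 1 and 0.05 without water replicate 3. With the digit term no clock gene was called. Of the root cell type markers 0 rose and 3 fell of 16 tested. The root marker counts were 0 and 1 without PEG replicate 2, and 0 and 0 with the code digit as a term. The 3 were WOX5, a marker of the quiescent centre, and the epidermal genes SHV2 and GL2. Among the 27 photosynthesis genes edgeR called none, 1 was higher at an unadjusted p under 0.05, DESeq2 called 0, and the median log2 fold change was 0.26.

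Some of the largest changes in abundance lay outside the lists. AT5G21940, annotated as resembling a hybrid histidine kinase, read 575, 660.2 and 757 CPM in water and 1724, 1482 and 1483 CPM in PEG (log2 fold change 1.24, SE 0.12, adjusted p = 5.8e-07). AGP1, an arabinogalactan protein of the cell surface, read 306, 288 and 270.1 CPM in water and 979.7, 1073 and 886 CPM in PEG (log2 fold change 1.77, SE 0.16, adjusted p = 3.49e-07). AT4G27280, a small protein with calcium-binding EF hands, read 184, 166 and 142 CPM in water and 747, 838 and 799 CPM in PEG (log2 fold change 2.28, SE 0.22, adjusted p = 1.12e-05). AT4G29780, annotated as a nuclease, read 137, 108 and 88.5 CPM in water and 749.6, 710.1 and 711 CPM in PEG (log2 fold change 2.702, SE 0.34, adjusted p = 0.000363). The PEG libraries of each lay above all water libraries. AT2G43150, an extensin-like protein, had the largest loss, 8487, 7841 and 7591 CPM in water and 3591, 3209.7 and 5412 CPM in PEG (log2 fold change -0.97, SE 0.18, adjusted p = 0.00101). AT5G64100, a peroxidase, read 3859, 3551 and 3018 CPM in water and 1783, 1407 and 1514 CPM in PEG (log2 fold change -1.15, SE 0.14, adjusted p = 7.57e-06). HIR2, of the hypersensitive induced reaction family, read 2125, 1926 and 2040.0 CPM in water and 981, 816 and 999 CPM in PEG (log2 fold change -1.12, SE 0.12, adjusted p = 1.76e-06).

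To see which changes of the first hour had moved by the third, PEG 3 h was tested directly against PEG 1 h. The water libraries, which serve both times as control, took no part in the contrast. The PEG 1 h libraries, however, also defined the rises and falls of the first hour. A first-hour change that was partly noise in these libraries would tend to move back at 3 h. The size of this effect was not tested. Of the 10941 genes 1548 differed (14.1%), 609 higher (5.57%) and 939 lower (8.58%) at 3 h, a split that was 996 and 511 when libraries were scaled by their totals alone. Of the 1257 genes that rose in the first hour 112 were higher (8.91%) and 185 lower (14.7%) at 3 h, and of the 991 that fell 52 were higher (5.25%) and 205 lower (20.7%). NAC factors were among those higher at 3 h. ATAF1 was at 875 ± 163 CPM at 1 h, 1816 ± 113 at 2 h and 2086 ± 384 at 3 h (log2 difference 1.25, SE 0.15, adjusted p = 1.69e-05), and NAC102 at 259.8 ± 89.1, 616 ± 124 and 804 ± 114 CPM (log2 difference 1.61, SE 0.22, adjusted p = 0.00041). MAPKKK18 was at 23.0 ± 2.19, 61.5 ± 20.4 and 83.9 ± 30.4 CPM (log2 difference 1.86, SE 0.31, adjusted p = 0.00195), and HAI1 at 17.5 ± 6.87, 54.6 ± 9.76 and 82.3 ± 18.6 CPM (log2 difference 2.16, SE 0.28, adjusted p = 0.000187). By list, 11 of the 22 NAC, HD-Zip and MYB factors and 5 of the 8 clade A phosphatases were higher at 3 h than at 1 h.

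Other genes that rose in the first hour were lower at 3 h. AT5G58680 was at 21.3 ± 6.70 CPM at 1 h and 5.41 ± 3.002 at 3 h (log2 difference -1.93, SE 0.32, adjusted p = 0.000567), and AT4G27280 at 795 ± 45.6 and 298 ± 119 CPM (log2 difference -1.42, SE 0.22, adjusted p = 0.000856). ERF13 was at 179.7 ± 6.83 and 67.4 ± 43.2 CPM (log2 difference -1.42, SE 0.40, adjusted p = 0.0442), a call lost without any of PEG 1 h replicates 1, 2 and 3 or PEG 3 h replicate 2, at adjusted p = 0.107, 0.105, 0.117 and 0.151. PP2-B13, a phloem protein 2-like gene, read 5.02, 5.31 and 5.60 CPM in water and 19.0, 21.6 and 25.6 CPM in PEG in the first hour and 5.42 ± 2.62 CPM at 3 h (log2 difference -2.01, SE 0.29, adjusted p = 0.000162). Of the dehydration genes, of which 6 fell in the first hour, 8 of the 20 tested were higher at 3 h than at 1 h, with 5 without PEG 3 h replicate 2 and 6 without PEG 1 h replicate 2. COR47 was at 6293 ± 445 CPM in water, 3681 ± 629 at 1 h and 4988 ± 701 at 3 h (log2 difference 0.44, SE 0.14, adjusted p = 0.0396), and LTI78 at 671 ± 56.7, 323 ± 198 and 1113 ± 154 CPM (log2 difference 1.76, SE 0.40, adjusted p = 0.019). Both calls were lost without PEG 1 h replicate 2, at adjusted p = 0.0737 for COR47 and 0.0765 for LTI78, and without PEG 3 h replicate 2, at 0.212 and 0.0706. COR47 was also lost without PEG 1 h replicate 3 (0.0621) and without PEG 3 h replicate 1 (0.0539). RAP2.9, an AP2/ERF factor, fell from 50.5 ± 9.52 to 19.1 ± 3.69 CPM in the first hour and was at 61.4 ± 10.6 CPM at 3 h (log2 difference 1.74, SE 0.19, adjusted p = 1.09e-05). Lower at 3 h than at 1 h were 10 of the 23 aquaporins, 9 of the 20 nutrient transporters and 6 of the 12 Casparian and suberin genes, and with libraries scaled by their totals alone 6, 6 and 5. The aquaporins were also 6 without PEG 1 h replicate 1. CASP1 was at 345 ± 51.5 CPM at 1 h and 124 ± 12.9 at 3 h (log2 difference -1.47, SE 0.12, adjusted p = 5.71e-07).

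**Figure D4:**
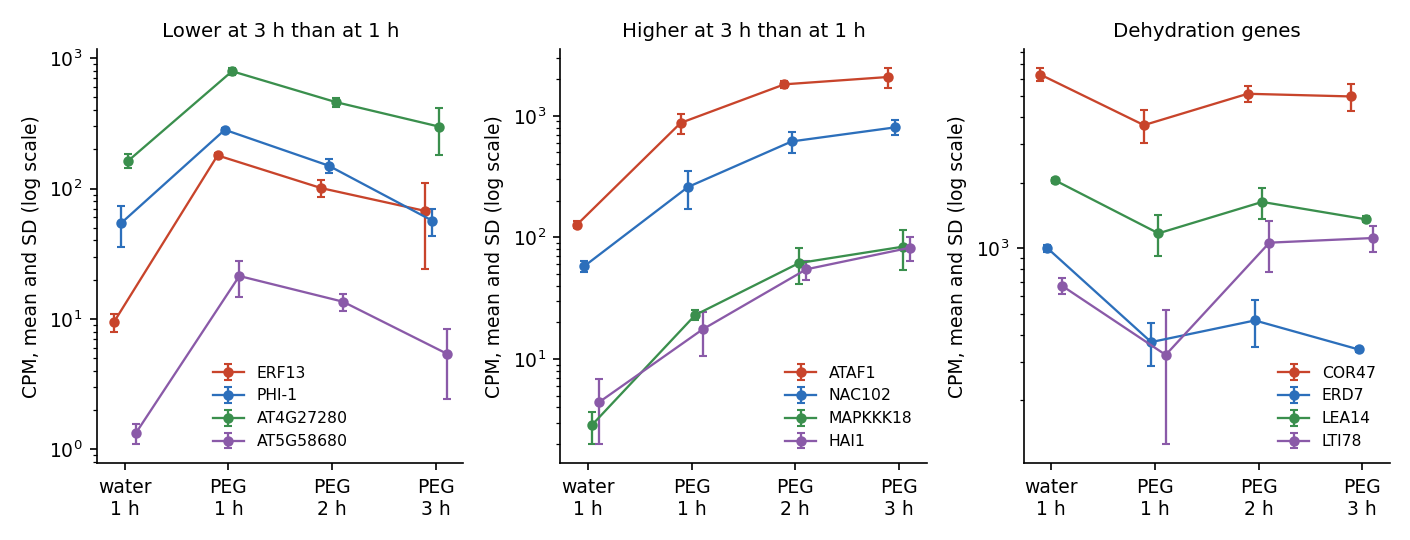
Mean CPM and SD (n = 3) on a log axis in root water 1 h and root PEG 1 h, 2 h and 3 h for 12 genes in 3 panels. The left panel shows early rises that were lower at 3 h, the middle panel rises that went on to 3 h, and the right panel 4 dehydration genes with lower means at 1 h of PEG than in water, of which COR47 and LTI78 were higher at 3 h than at 1 h.

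Shoots of the same seedlings served to ask where the root response of the first hour differed. Root and shoot libraries were fitted as independent, and no setting modelled the pairing of roots and shoots cut from the same pool. In a fit of all 24 libraries 15472 genes were tested, 848 were called in the shoot (5.48%, with 4.03% rising), and the difference of the 2 responses was called for 1220 genes (7.89%), 421 with the higher change in root (2.72%) and 799 in shoot (5.16%). In this fit the median log2 fold change of all genes in root was -0.15, so root values lie lower than in the fit of root libraries, and the split of the 1220 calls turned with the scaling: with RLE size factors it was 636 and 495. Of the 2233 root calls that were also in this fit 311 were called in both organs. Of these 195 rose and 48 fell in both, and 68 had opposite signs, 34 each way. The difference itself was called for all 68, which calls of opposite sign make likely. EXO changed by 0.88 in root and -2.28 in shoot on the log2 scale (difference 3.16, SE 0.28, adjusted p = 6.76e-09), and PHI-1 by 2.16 in root and -0.99 in shoot (difference 3.14, SE 0.36, adjusted p = 8.72e-06). ERF53 changed by -2.66 in root and 3.75 in shoot (difference -6.41, SE 1.09, adjusted p = 0.00183), although its fall in root, called in the fit of root libraries, had an adjusted p of 0.064 in this fit and 0.107 with the digit term. The clock gene FKF1 changed by -0.74 in root and 2.18 in shoot (difference -2.92, SE 0.24, adjusted p = 6.69e-10). For the drought regulator ATAF1 the changes were 2.56 in root and 3.28 in shoot (difference -0.71, SE 0.34, adjusted p = 0.231). For AZF2 they were 2.13 in root and 2.27 in shoot (difference -0.13, SE 0.45, adjusted p = 0.914). Neither difference was called. On simulated counts this test recovered 23% of log2 differences of 1, so an uncalled difference does not show equal responses. Of the dehydration genes 6 differed between organs, all 6 with the lower change in root, but 2 without PEG replicate 2 and 0 with the digit term. The difference was tested for 24 dehydration genes. With libraries scaled by their totals alone it was called for 4, all with the lower change in root. COR47 changed by -0.99 in root and 0.70 in shoot (difference -1.69, SE 0.31, adjusted p = 0.00108). LTI78 changed by -1.24 in root and 1.89 in shoot (difference -3.14, SE 0.77, adjusted p = 0.0201), and this call was lost without root PEG replicate 2 (adjusted p = 0.079), root water replicate 3 (0.0501), shoot PEG replicate 3 (0.0582) or shoot water replicate 1 (0.0527). For the clock list the difference was tested for 15 genes, and scaling by totals alone gave 7 calls, all with the lower change in root. Of the clock genes 7 rose in shoot, and 7 differed between organs, all with the lower change in root; 6 differed without PEG replicate 2 and 5 with the digit term.

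**Figure D5:**
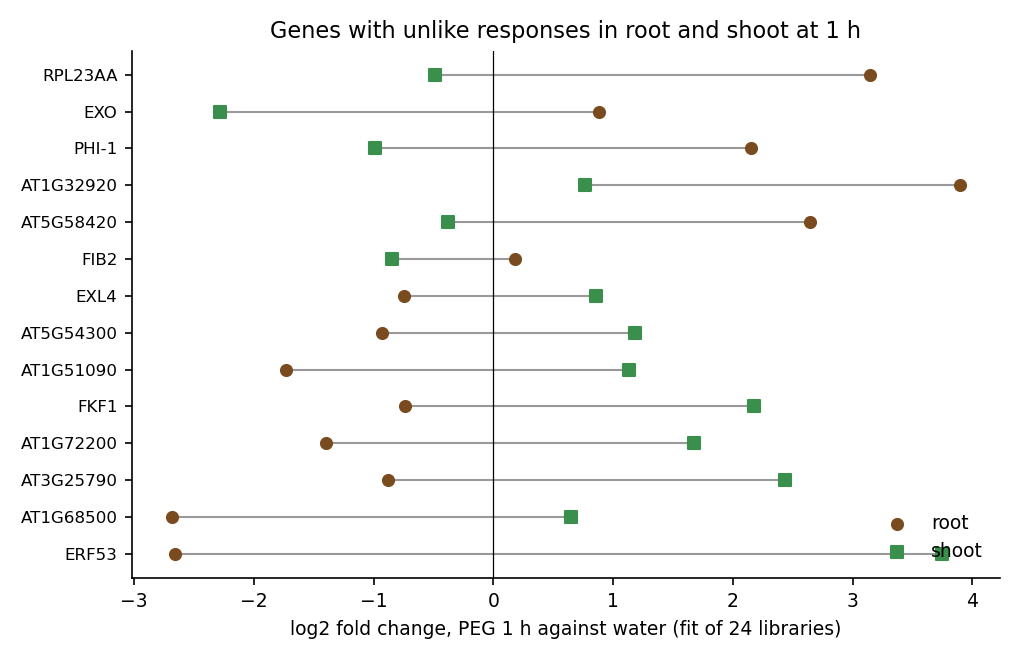
Log2 fold change of PEG 1 h against water in root (brown circles) and shoot (green squares), from the fit of 24 libraries. The 14 genes were chosen among those with a called difference. EXO, PHI-1, FKF1, ERF53, EXL4, FIB2, AT3G25790 and AT5G54300 have opposite signs and were called in both organs, the root by the fit of root libraries.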

How the data were processed

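RNA of root pools, 3 biological replicates per group, was counted by MARS-seq. Per the submitters' processing notes bcl2fastq, cutadapt, STAR 2.4.2a, HTSeq and DESeq2 were used; the genome build and the treatment of molecular identifiers are not given in the sources used here. The deposited table holds raw counts of 18240 genes, per the file headers; all its columns were matched to samples. It also holds the authors' size-factor normalized values (a signal), their regularized log2 values, and log2 fold changes with p-values, of which only the deposited p-values and log2 fold changes for root PEG 1 h were used, as an alternative. The self-made steps were edgeR 4.0.16 (limma 3.58.1, R 4.3.3) with TMM scaling, filterByExpr and the robust quasi-likelihood test. It was two-sided, over 12 root libraries, or 24 for root against shoot, and called at an adjusted p under 0.05. On simulated counts PEG 1 h against water recovered 60% of log2 changes of 1 and 94% of those of 2, with 16 false calls. For PEG 3 h against 1 h these were 67% and 98% with 4 false calls. For the difference from shoot they were 23% and 90% with 5 false calls. Alternatives were RLE or total scaling, no filter, DESeq2 1.42.0, the replicate letter as a block, the code digit as a term, other sets of libraries and each library left out. Water libraries held 3941951 to 4480930 counts and PEG libraries 1332586 to 3489193; a floor is 3 counts and covers counting error only. Replicates differed by more than sampling noise (chi-square per degree of freedom 3.04 to 7.61). Names and products come from RefSeq, which matched 18125 IDs; names in brackets are common symbols.

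The members and lists were chosen with earlier results of these data known. The text names genes by a rule: the 14 highest and 12 lowest log2 fold changes among called genes with separate groups and at least 20 CPM; the 8 largest gains and losses in CPM; up to 5 members of each list by adjusted p with any called against the majority, or the 2 of highest level in a list with no call; the 5 highest and 5 lowest differences from shoot and from 3 h; and a few fixed genes. Genes of the rule may be left out for length. 1 of the 4 promoter windows with a match is not reported here. SHV2, GL2 and WOX5 also fall under the root marker list.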

Additional observations from a re-analysis of the deposited data

Results flagged for a closer look

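Taken for a closer look were 14 genes whose response to the first hour of PEG was called as differing between root and shoot. The call came from edgeR's test of the difference itself, over 3 libraries per group and in the fit of 24 libraries. They include the 5 highest and 5 lowest differences among genes called in root with a group mean of at least 20 CPM. The others are named genes called in opposite directions in the 2 organs. A called difference was a condition of both choices, so that all 14 passed the test is no result. Differences are log2, root minus shoot, and each was refitted under 18 other settings.

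EXO, of the EXORDIUM family, rose in root and fell in shoot (difference 3.16, SE 0.28, adjusted p = 6.76e-09), and PHI-1, of the same family, did likewise (3.14, SE 0.36, adjusted p = 8.72e-06). EXL4, another member, fell in root and rose in shoot (-1.60, SE 0.23, adjusted p = 3.72e-05). The drought factor ERF53 fell in root and rose in shoot (-6.41, SE 1.09, adjusted p = 0.00183), as did the blue light receptor gene FKF1 (-2.92, SE 0.24, adjusted p = 6.69e-10) and AT3G25790 (-3.32, SE 0.70, adjusted p = 0.00218). These 6 differences were called under all 18 settings. The root fall of ERF53 itself was lost with the digit term (adjusted p = 0.107) and in the fit of 24 libraries (0.064).

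AT5G54300 fell in root and rose in shoot (-2.12, SE 0.44, adjusted p = 0.00419) and FIB2 did the reverse (1.03, SE 0.28, adjusted p = 0.0187), although its rise in root was not called in the fit of 24 libraries (adjusted p = 0.571). Both differences were lost with the digit of the code as a term, and FIB2 also without shoot water replicate 1. AT1G68500 (-3.33, SE 0.58, adjusted p = 0.00204) and AT1G51090 (-2.86, SE 0.65, adjusted p = 0.0117) fell in root and were not called in shoot, and both differences were lost with the digit term. AT1G72200 (-3.07, SE 1.03, adjusted p = 0.0443) was lost in 16 of the 18 settings.

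AT1G32920 (3.13, SE 0.76, adjusted p = 0.0174), RPL23AA (3.64, SE 0.88, adjusted p = 0.0185) and AT5G58420, a ribosomal protein S4 gene (3.03, SE 0.73, adjusted p = 0.0179), rose in root and were not called in shoot. All were lost with the digit term, and RPL23AA also without root PEG replicate 2. As CPM of each library's total, AT1G32920 lay at 2.43 to 2.79 in root water, 13.8 to 84.8 in root PEG 1 h and 219 to 239 in shoot PEG 1 h libraries. In shoot water libraries it lay at 123 to 144. RPL23AA stood at 380.9 in root PEG 1 h replicate 2, against 46.6 and 110.3 in the other 2. Its levels were 190 to 241 in shoot PEG 1 h and 237 to 384 in shoot water libraries. AT5G58420 stood at 415 in root PEG 1 h replicate 2, against 73.8 and 137. Its levels were 185 to 220 in shoot PEG 1 h and 216 to 297 in shoot water libraries. Photosynthesis transcripts took 0.121% to 0.189% of the counts in the same 6 root libraries, and 0.130% in root PEG 1 h replicate 2. The part of carried-over shoot RNA in these rises was not tested.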

How the results depend on the processing

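The number of genes called between PEG 1 h and water, 2248, became 629 with the code digit in the fit and 1249 to 2495 when single libraries were left out, with the lowest value without PEG replicate 2; it was 2081 in the authors' deposited table. The difference from shoot, 1220 genes, became 236 with the digit term and 372 to 1272 with single libraries left out; it moved by over 1.5 times without any root water library, root PEG replicate 2, shoot PEG replicate 3 or shoot water replicate 3. The 3 h against 1 h comparison, 1548 genes, ranged over 888 to 1426 with single libraries left out, the lowest without PEG 3 h replicate 2. The share of calls that rose, 55.9%, fell below 50% with no filter on low counts (46.0%), in the fit of all 24 libraries (35.2%), and without PEG replicate 2 or any water library, over a range of 46.8% to 55.6% with single libraries left out; the cause was not tested. With the replicate letter as a block within each organ the 3 comparisons gave 2226, 1173 and 1567 calls. Deviations of root water and PEG 1 h libraries with the same letter had correlations of 0.132, 0.127 and -0.064 over 6780 genes. Those with unlike letters ranged from -0.188 to 0.056. With so few libraries per group these values cannot settle whether a letter marks a shared batch. Of the 146 called genes in the text 97 kept their call under all 15 settings, and none changed sign. The other 49 lost it under at least 1 setting. With the digit term 47 lost it, of which 18 under that setting only, and 23 lost it without PEG replicate 2. Genes under 3 counts in a library (0.670 to 2.25 CPM) cannot be told from absent ones. Lists without PEG replicate 2 and with the digit term, and the authors' table, were alternatives chosen after seeing the data. With the digit term the root change from water at PEG 1 h rests on PEG replicate 1 alone.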

Other observations

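Other short elements were counted in the same windows of 250 bases before the gene start, on both strands, as descriptions of letters only. The site II element TGGGCC, common in front of genes for ribosomal and other growth proteins, was in 17.0% of the 10723 windows of all genes tested, in 193 of the 1230 of genes that rose and in 8.25% of the 982 of genes that fell. The G-box CACGTG was in 7.84% of all windows, 9.19% of those of risers and 5.30% of those of fallers. The W-box TTGACC (or its other form TTGACT), the letters that WRKY factors recognize, was in 27.8% of all windows, 27.9% of risers and 32.2% of fallers. The ABRE core ACGTGNC, bound by ABF factors, was in 9.69%, 9.84% and 8.55%, and the dehydration element core GCCGAC in 2.97%, 3.17% and 4.07%. Among the 230 windows of genes that rose 4-fold or more, the ABRE core was in 16.1% and the G-box in 13.9%. Among the 103 windows of genes that fell 4-fold or more, the ABRE core was in 6.8% and the G-box in 2.91%. For the same sets the site II shares were 17.0% and 6.8%, and the W-box shares 30.0% and 27.2%. Those of the dehydration element core were 3.04% and 3.88%. These differences were not tested.

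Of the 765 genes in the 36 lists 693 were in the table and 551 had enough counts to be tested, of which 123 rose and 90 fell; 142 were below the filter on low counts.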
